A study of Mus musculus with 6 samples.

Results

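The HoxB cluster genes Hoxb1, Hoxb2, Hoxb3, Hoxb4, Hoxb5, Hoxb6, Hoxb7, Hoxb8, Hoxb9 and Hoxb13 were taken by symbol from the gene list of the count matrices, and all 10 were found among the 32285 genes listed. Their transcripts were counted in 6 libraries of dissociated autonomic ganglia of the mouse, made with a droplet RNA-seq assay that reads the 3′ ends of transcripts and counts each captured molecule by its tag (a UMI), so that levels need no division by gene length. The libraries represented the sphenopalatine ganglion, a parasympathetic ganglion of the head; from the stellate ganglion, the coeliac ganglion and the lumbar chain, which are sympathetic ganglia; and from the pelvic ganglion, the only ganglion with 2 libraries (pelvic 1 and pelvic 2). All donors were pups at postnatal day 5 that carried a Cre transgene and a Rosa allele from which Cre switches on tdTomato; no group lacked these alleles, no treatment was given, and whole ganglia were dissociated with no sort. The stellate, sphenopalatine and pelvic 1 libraries were made in a first experimental round with version 2 of the reagent kit. The coeliac, lumbar and pelvic 2 libraries were made in a second round with version 3. A difference between ganglia of different rounds therefore cannot be told apart from the round and the kit. Ganglia of the same round shared both, and only the pelvic ganglion had a library in each round. How many pups were pooled for each library is not given in the sources used here.

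The 6 libraries held 39353313 to 113352559 UMIs, and 21442 of 30777 droplets passed the filters on genes and mitochondrial transcripts. Neurons, selected by their neuronal markers, numbered 237 to 2724 per library. The other cells were clustered without Hox genes and named by fixed markers: clusters that were glia-like, fibroblast-like, endothelial-like, mural-like (pericytes and vascular smooth muscle) and macrophage-like are called glia, fibroblasts, endothelial cells, mural cells and macrophages below. The median number of UMIs was 26651 to 108598 in neurons and 3474 to 11968 in glia of the same libraries, so levels are given as UMIs of a gene per 1000000 UMIs of the class sum (CPM). The libraries of the first round shared 20 to 49 cell barcodes pairwise, and those of the second round 1 to 4. Neurons met their labels: Th, the noradrenaline synthesis enzyme, was at 994, 658 and 452 CPM in the stellate, coeliac and lumbar neurons against 1.85 CPM in sphenopalatine neurons, and Hand1 was at 0.0132 CPM in sphenopalatine neurons against 119.7 to 252 CPM elsewhere.

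Hox genes encode homeodomain transcription factors that give cells a position along the body axis. The genes of a cluster lie in the order of their anterior limits of expression: those at the 3′ end (Hoxb1 to Hoxb4) are first expressed in the hindbrain and the neural crest of the branchial arches, those of the middle (Hoxb5 to Hoxb9) in the trunk, and Hoxb13, at the 5′ end, in the tail and the hindgut and prostate region. Neural crest cells of the head, the trunk and the sacral level give rise to the neurons and the glia of the corresponding ganglia, whereas fibroblasts, endothelial cells and mural cells of the trunk are mostly mesodermal. In the GRCm38 annotation the cluster lies on the plus strand of chromosome 11, from Hoxb13 (chr11:96194316-96197447) to Hoxb1 (chr11:96365752-96368256), over 173.941 kb. Hoxb9 (chr11:96271457-96276595) is 74.01 kb from Hoxb13, and the other 9 members fill 96.8 kb. Between them lie Hoxb8 (chr11:96281905-96285315), Hoxb7 (chr11:96286623-96290162), Hoxb6 (chr11:96292476-96301569), Hoxb5 (chr11:96303336-96306121), Hoxb4 (chr11:96318267-96321638), Hoxb3 (chr11:96323326-96347930) and Hoxb2 (chr11:96350525-96354012). On the opposite strand, Hoxb3os (chr11:96343072-96354691) overlaps 52.9% of the exonic bases of Hoxb3 and 27.3% of those of Hoxb2, and Hoxb5os (chr11:96291024-96306910) overlaps 3.59% of those of Hoxb5; whether the counting used the strand is not given in the sources used here, so the levels of Hoxb3 and Hoxb2 may not be separable from that of Hoxb3os.

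The RefSeq promoter table (GRCm38.p6) held 3 of the 10 members, Hoxb1, Hoxb4 and Hoxb8, which stand for a member at the 3′ end that gave almost no UMI, a member at its highest in vessels, and a trunk member that separated glia from neurons. The 250 bases before the RefSeq gene start are printed 5′ to 3′ on the plus strand, at chr11:96365508-96365757, chr11:96318017-96318266 and chr11:96281655-96281904. Capitals mark matches, on either strand, to the PBX-HOX word TGATNNAT, the MEIS word TGACAG and the TATA box word TATAAA; no match of 1 word overlapped that of another.
Hoxb1: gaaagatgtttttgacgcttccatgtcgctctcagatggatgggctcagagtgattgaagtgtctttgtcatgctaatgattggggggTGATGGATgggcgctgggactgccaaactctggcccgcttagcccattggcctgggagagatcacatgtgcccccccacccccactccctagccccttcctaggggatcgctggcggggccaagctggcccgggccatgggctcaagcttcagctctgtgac
Hoxb4: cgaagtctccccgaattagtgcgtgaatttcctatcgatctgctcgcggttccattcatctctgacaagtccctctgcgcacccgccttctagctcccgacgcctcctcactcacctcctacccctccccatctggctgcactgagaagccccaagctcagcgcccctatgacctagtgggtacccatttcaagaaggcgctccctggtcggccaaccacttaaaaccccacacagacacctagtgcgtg
Hoxb8: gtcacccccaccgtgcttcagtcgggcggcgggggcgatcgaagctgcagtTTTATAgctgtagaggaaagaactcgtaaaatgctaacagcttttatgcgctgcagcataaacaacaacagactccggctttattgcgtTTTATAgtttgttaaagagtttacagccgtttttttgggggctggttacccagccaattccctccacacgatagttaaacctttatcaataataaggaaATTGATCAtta
The Hoxb1 window held a PBX-HOX match (TGATGGAT) that began 162 bases before the gene start, the Hoxb8 window held a PBX-HOX match (ATTGATCA) 11 bases before it and TATA box matches (TTTATA, the word on the other strand) 199 and 110 bases before it, and the Hoxb4 window held none of the words. Of 32851 mouse promoters of the same length, 7.68% held a PBX-HOX match, 15.9% a MEIS match and 12.4% a TATA box match. The windows of Hoxb1, Hoxb4 and Hoxb8 held 7, 14 and 12 CpG against a median of 6 over all promoters. These matches describe letters only.

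Across all classes, Hoxb2 gave 3254 UMIs, Hoxb7 3136, Hoxb4 2207, Hoxb9 1602, Hoxb3 1478, Hoxb8 929, Hoxb5 928 and Hoxb6 727. Hoxb1, which sets the identity of a hindbrain segment, and Hoxb13 gave 6 UMIs each. Hoxb1 did not pass 0.938 CPM and Hoxb13 did not pass 0.642 CPM in any class of any library, and neither passed the filter for a test. The other 8 members gave UMIs in the glia, fibroblasts, endothelial cells and mural cells of every ganglion below the head, except for Hoxb3 and Hoxb9 in stellate mural cells. In neurons they passed 1 CPM only in the pelvic ganglion, apart from Hoxb2 in the sphenopalatine ganglion.

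**Figure D1:**
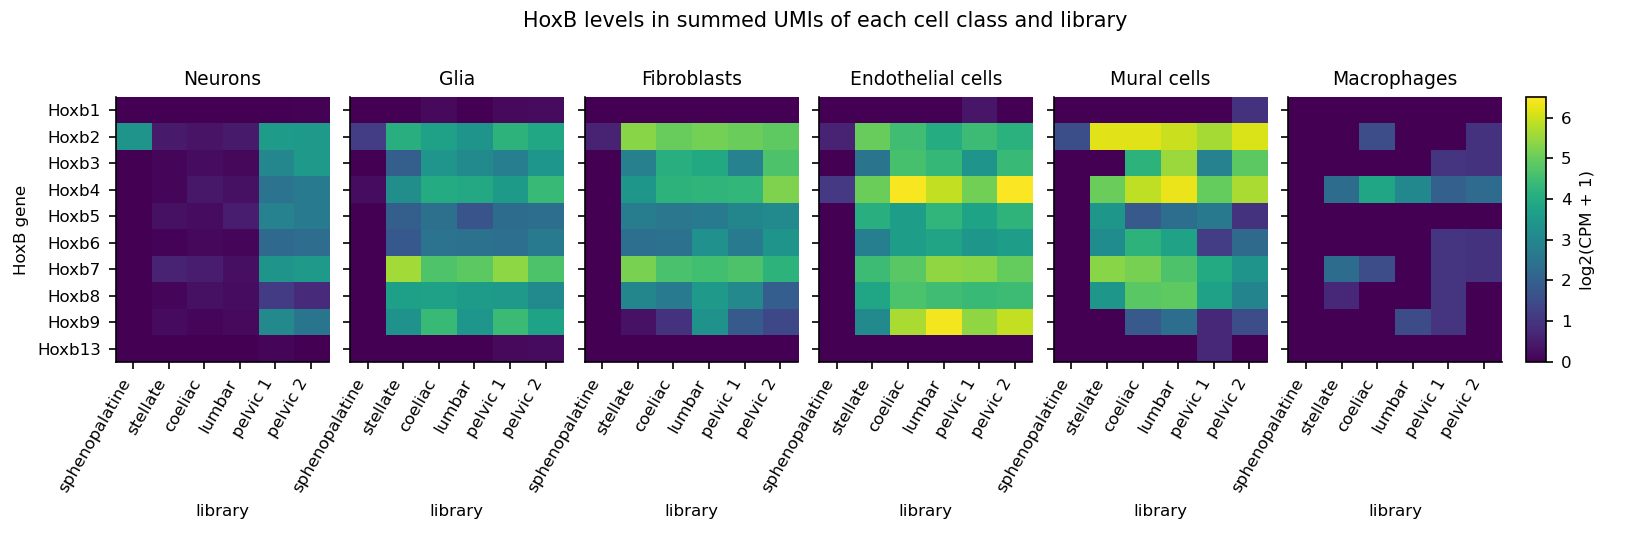
Level of each HoxB gene (rows, Hoxb1 to Hoxb13) in the summed UMIs of each library (columns), by cell class (panels). Colour gives log2(CPM + 1). The neuron panel is dark for the stellate, coeliac and lumbar libraries, at 1.52 to 1.78 CPM for the summed cluster, while the glia of the same libraries reach 86.5 to 103 CPM. In the sphenopalatine columns Hoxb2 in neurons stands out at 9.31 CPM, and no other square passes 1.97 CPM.

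In neurons the summed level of the 10 genes was 9.31 CPM in the sphenopalatine, 1.52 in the stellate, 1.78 in the coeliac, 1.67 in the lumbar, 50.3 in the pelvic 1 and 51.4 in the pelvic 2 library. The pelvic libraries were the highest and lay close together although they came from different rounds; with every cell thinned to 2000 UMIs they were at 57.7 and 39.7 CPM. The levels of the ganglia were not tested against each other, since each ganglion but the pelvic had a single library, and the intervals quoted are exact Poisson 95% intervals that cover counting error only.

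Hoxb2, which marks hindbrain segments from the third backward and the crest that leaves them, was the only member with UMIs in sphenopalatine neurons. It gave 708 UMIs there, or 9.31 CPM (95% interval 8.64 to 10.0), against 0.378 CPM in stellate, 0.278 in coeliac and 0.387 in lumbar neurons, and 10.8 and 10.2 CPM in pelvic neurons (mean 10.5 ± 0.412, SD, n = 2). The sphenopalatine value lay just under both pelvic values and far above the 3 sympathetic values, which do not differ beyond their counting error. A Hoxb2 UMI was seen in 24.3% of the 1903 sphenopalatine neurons and in 0.612% of the 1307 glia of the same library, at medians of 38127 and 4550 UMIs. After every cell was thinned to 2000 UMIs, the shares were 1.52% and 0.383%. None of the other 9 members gave a UMI in sphenopalatine neurons, which allows a share of neurons with a UMI of up to 0.158% and a level of up to 0.0395 CPM for each; a neuron without a UMI may still express the gene.

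The sums of all pelvic neurons were above the sympathetic sums for the members from Hoxb3 to Hoxb9, although single clusters departed from these sums. The noradrenergic pelvic cluster P3 described below was under the pelvic sum of its library for each of these members. For Hoxb3 and Hoxb9 it was still above the sympathetic sums in both pelvic libraries, while Hoxb6 gave no UMI in P3 of pelvic 1. Small cholinergic clusters of the lumbar and stellate libraries reached Hoxb5 levels of 6.42 and 8.97 CPM. Hoxb3 was at 7.11 and 10.4 CPM in pelvic neurons (mean 8.76 ± 2.32, n = 2) and at 0.0882, 0.167 and 0.111 CPM in stellate, coeliac and lumbar neurons. Hoxb7 was at 9.24 and 10.5 CPM in pelvic neurons (9.85 ± 0.859) and at 0.529, 0.445 and 0.193 CPM in the sympathetic ones. Hoxb9, a gene of the thoracic and lumbar axis, was at 7.36 and 4.71 CPM (6.04 ± 1.87) against 0.139, 0.0556 and 0.124 CPM. In each of these genes every pelvic value was above every sympathetic value, and the intervals of the groups did not touch. Hoxb4 (4.55 and 5.50 CPM), Hoxb5 (6.35 and 5.36 CPM) and Hoxb6 (3.63 and 4.04 CPM) behaved in the same way, against at most 0.334, 0.401 and 0.111 CPM in sympathetic neurons. Hoxb8 was the lowest of the 8 in pelvic neurons, at 1.23 and 0.704 CPM, against 0.0756 to 0.222 CPM in sympathetic neurons. A pelvic neuron held UMIs of 1.57 members on average in pelvic 1 and of 2.75 in pelvic 2, and 23.1% and 52.6% of the neurons held 3 or more, at medians of 39381 and 108598 UMIs. In the stellate and lumbar libraries 96.4% and 95.1% of the neurons held no HoxB UMI at all.

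Sympathetic neurons were so low that RNA of other cells was set beside them. Glial genes in stellate neurons stood at a median of 1.54% of their level in glia. At that rate the glial Hoxb7 level of 47.4 CPM would give 0.728 CPM, more than the 0.529 CPM measured. Hoxb4, Hoxb8 and Hoxb9 were also under the level so given, and Hoxb2, Hoxb3, Hoxb5 and Hoxb6 at or above it. In coeliac and lumbar neurons the rates were 0.419% and 0.333%. There Hoxb7 would be at 0.106 and 0.0928 CPM, against 0.445 and 0.193 CPM measured. Each member from Hoxb2 to Hoxb9 was above the level so given in both, except Hoxb9 in the coeliac library. These rates are medians over 7 glial genes. The glial gene with the highest rate stood at 5.03%, 4.04% and 4.83% in stellate, coeliac and lumbar neurons, so a higher level from glial RNA is not excluded. Rates for RNA of fibroblasts and vessels were not taken. Without the neuron clusters that carried markers of glia, fibroblasts or vessels, the HoxB UMIs of stellate neurons went from 121 to 64 and those of lumbar neurons from 121 to 79. In the coeliac library, leaving out 2 neurons called as doublets lowered the summed level from 1.78 to 0.449 CPM and took Hoxb3, Hoxb4 and Hoxb9 to 0. The part of such RNA in the remaining UMIs was not tested.

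Pelvic neurons were clustered without Hox genes, and the clusters matched to the markers of P1 to P4; P1, P2 and P4 are cholinergic and P3 noradrenergic, with Th at 501 and 515 CPM. The clusters held 357, 252, 58 and 131 neurons (P1, P2, P4, P3) in pelvic 1 and 193, 96, 31 and 33 in pelvic 2, and 95 and 12 neurons led by haemoglobin and collagen genes stayed unnamed. All 8 members that were tested were higher in the mean of the cholinergic clusters than in the noradrenergic cluster in both libraries. This did not hold alike for each cluster: Hoxb8 was high in P4 only, and Hoxb9 in P4 was near its P3 level. Hoxb3 was at 6.07, 8.53 and 12.7 CPM in P1, P2 and P4 of pelvic 1 against 0.965 in P3, and at 11.6, 9.90 and 14.5 CPM against 1.32 in pelvic 2. Hoxb2 was at 12.6, 11.4 and 14.8 CPM against 2.90 in pelvic 1, and at 11.6, 9.78 and 15.1 CPM against 0.265 in pelvic 2. For both genes the lowest cholinergic cluster was above the P3 value of either library.

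**Figure D2:**
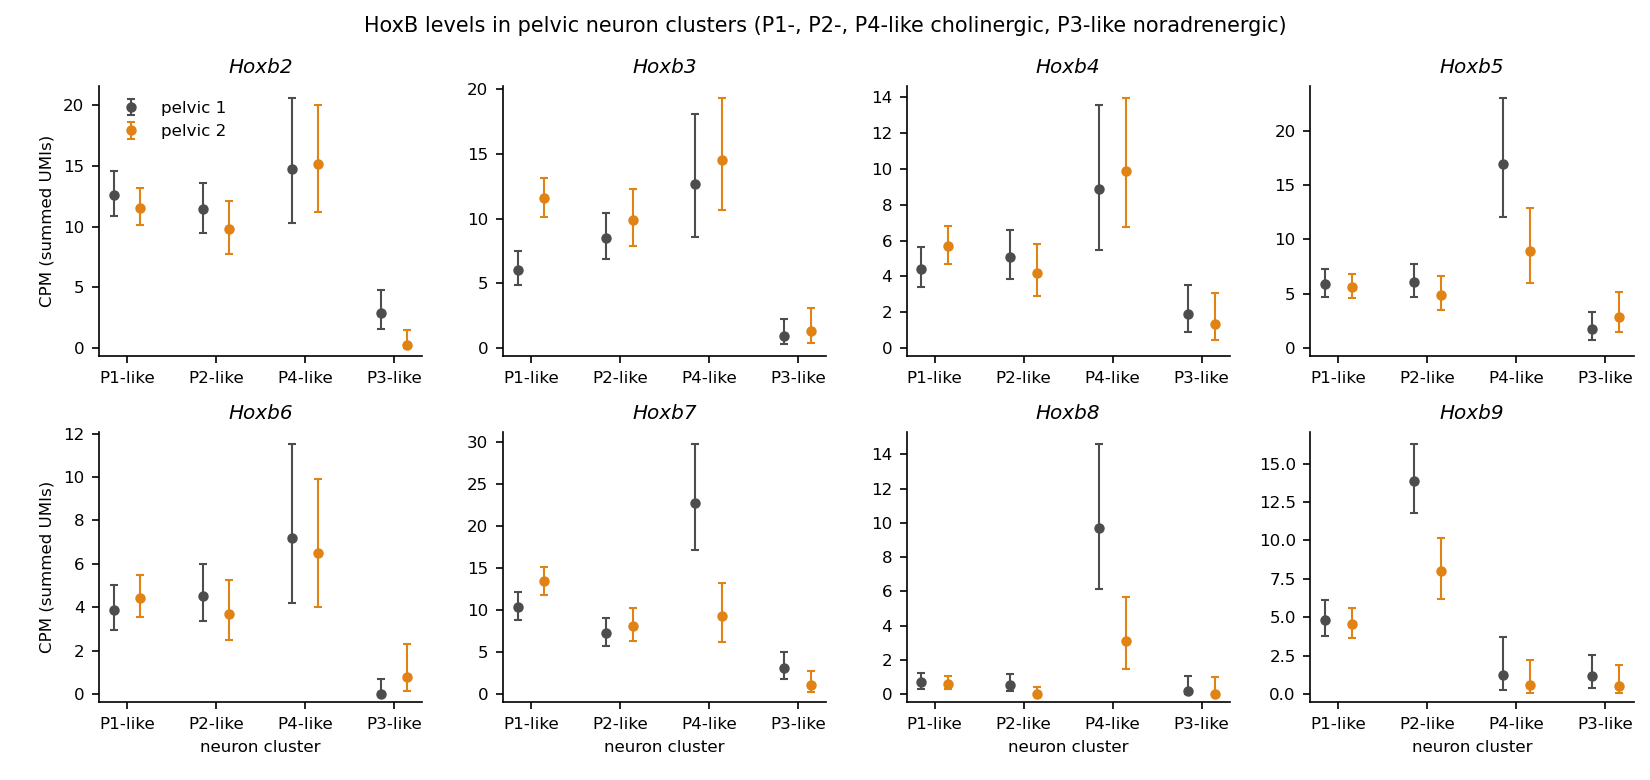
Level of 8 HoxB genes (CPM of summed UMIs, vertical axis from 0, a scale per gene) in the P1-, P2-, P4- and P3-like pelvic neuron clusters of each pelvic library (points); bars are exact Poisson 95% intervals. P3, on the right of each panel, is the lowest cluster for Hoxb2 to Hoxb7 in both libraries; Hoxb8 peaks in P4 (9.72 and 3.09 CPM) and Hoxb9 in P2 (13.9 and 7.99 CPM).

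By edgeR's quasi-likelihood test on the sums per library and cluster, with the library as block and Benjamini-Hochberg adjustment over 13167 genes, the log2 difference (cholinergic minus noradrenergic) was 3.18 ± 0.351 (SE) for Hoxb3 (adjusted p = 6.43e-09) and 2.84 ± 0.339 for Hoxb2 (adjusted p = 2.49e-07). Of all genes tested 13.0% were higher in the cholinergic clusters, beside 8 of 8 HoxB genes, whose median log2 difference was 2.60 against -0.01 over all genes. The other differences were 3.83 for Hoxb6, 3.21 for Hoxb8, 2.36 for Hoxb7, 2.07 for Hoxb9, 1.87 for Hoxb4 and 1.74 for Hoxb5, with edgeR adjusted p-values of 2.19e-06 to 0.0303. The p-values measure only the spread between these sums, and the Hoxb8 call was lost in 2 of 7 settings and that of Hoxb9 in 1, with adjusted p of up to 0.302 and 0.0562. The setting with doublets removed called the same numbers of genes as the reported test (1711 higher, 1808 lower), so it tried nothing. Hoxb6 gave no UMI in P3 of pelvic 1 and 0.794 CPM in P3 of pelvic 2, so its fitted difference depends on the prior count. Taken 1 library at a time, with no test, every one of the 8 differences kept its sign on the scale of log2(CPM + 1), from 1.23 to 2.60 in pelvic 1 and from 0.90 to 3.36 in pelvic 2.

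Among the cholinergic clusters the trunk members were not alike, which is given as a description. Hoxb8 was concentrated in P4, at 9.72 CPM (23 UMIs) and 3.09 CPM (10 UMIs), and did not pass 0.682 CPM in P1 or P2. Hoxb9 showed the opposite order, at 13.9 and 7.99 CPM in P2, 4.84 and 4.54 CPM in P1, and 1.27 and 0.618 CPM in P4, a level like that of P3 (1.16 and 0.530 CPM). Hoxb5, known for its part in enteric neural crest, and Hoxb7 were also at their highest in P4 of pelvic 1, at 16.9 and 22.8 CPM, but in pelvic 2 the P4 level of Hoxb7 (9.27 CPM) was below that of P1 (13.4 CPM). The 3 UMIs of Hoxb13 in neurons all came from pelvic 1.

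Glia carried the trunk members in every ganglion but the sphenopalatine. Hoxb7, the highest of them, was at 0 CPM in sphenopalatine, 47.4 in stellate, 25.4 in coeliac, 27.9 in lumbar, 41.5 in pelvic 1 and 24.5 in pelvic 2 glia. Hoxb8 was at 0, 11.6, 12.2, 11.1, 10.5 and 7.65 CPM in the same order, with at most 1.23 CPM in neurons. Hoxb9 was at 0, 9.20, 19.8, 9.75, 20.4 and 12.6 CPM. These 3 genes were above the neurons of their own library in each of the 5 libraries below the head. The glia did not have the same make-up in each library. Clusters with Cenpf, a cell division gene, among their leading genes were kept as glia in the stellate and pelvic libraries. Such clusters of 230 sphenopalatine, 74 coeliac and 91 lumbar cells stayed unnamed and were left out. The coeliac and lumbar ones held Hoxb7 at 37.6 and 33.6 CPM and Hoxb9 at 44.7 and 20.6 CPM.

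**Figure D3:**
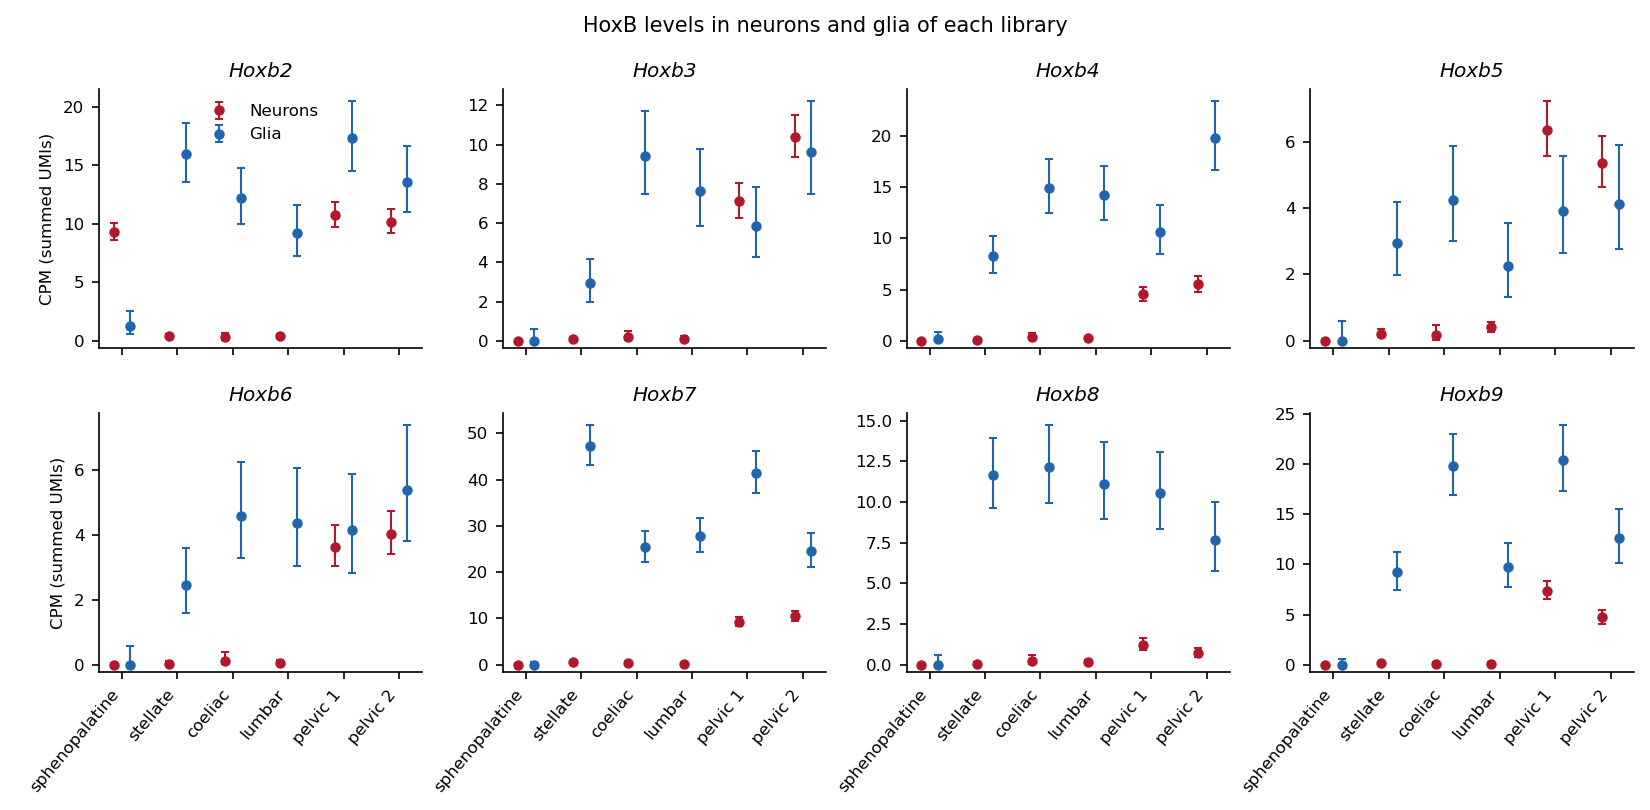
Level of 8 HoxB genes (CPM of summed UMIs, vertical axis from 0, a scale per gene) in neurons and glia of each library; bars are exact Poisson 95% intervals. In the stellate, coeliac and lumbar libraries glia are far above neurons for every gene; in the pelvic libraries Hoxb3, Hoxb5 and Hoxb6 overlap between both classes; in the sphenopalatine library Hoxb2 is at 9.31 CPM in neurons and 1.27 CPM in glia.

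Over the 6 libraries, 5 of the 8 members tested were higher in glia than in neurons by edgeR's quasi-likelihood test with the library as block and Benjamini-Hochberg adjustment over 15401 genes, where 37.1% of all genes were higher and 36.5% lower. The log2 difference was 4.88 ± 0.692 for Hoxb8 (adjusted p = 0.000476), 4.40 ± 1.10 for Hoxb7 (adjusted p = 0.00827), 4.11 ± 1.12 for Hoxb9 (adjusted p = 0.0124), 4.05 ± 0.953 for Hoxb4 (adjusted p = 0.00479) and 3.00 ± 1.14 for Hoxb6 (adjusted p = 0.0453). Hoxb3 (2.94 ± 1.31), Hoxb2 (2.24 ± 1.23) and Hoxb5 (1.67 ± 0.897) missed the threshold, at edgeR adjusted p of 0.0768, 0.131 and 0.129. The median of the 8 was 3.53 against 0.02 over all genes. The Hoxb8 call held in 19 of 19 settings and that of Hoxb6 in 9. Hoxb6 was no longer called without the stellate, the sphenopalatine, the coeliac or the lumbar library. Without both pelvic libraries, an alternative chosen after seeing the data, 7 members were called higher, beside 4922 of 15019 genes.

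The 3′ members, from Hoxb2 to Hoxb4, reached glia as well. Hoxb2 was at 1.27 CPM in sphenopalatine glia and at 15.9, 12.2, 9.25, 17.3 and 13.6 CPM in stellate, coeliac, lumbar, pelvic 1 and pelvic 2 glia. Hoxb4, known for its use in expanding blood stem cells, was at 0.159, 8.32, 14.9, 14.2, 10.7 and 19.8 CPM, and Hoxb3 at 0, 2.93, 9.42, 7.62, 5.85 and 9.64 CPM. The summed level was 1.43 CPM in sphenopalatine glia and 86.5 to 115 CPM in all others. Neuron genes stood in them at a median of 10.8% of their level in neurons, and at that rate the Hoxb2 of the neurons would give 1.00 CPM of the 1.27 CPM measured. For Hoxb3 and Hoxb5 to Hoxb9, no UMI was seen in the 1307 sphenopalatine glia, which allows a share of glia with a UMI of up to 0.230% at a median of 4550 UMIs, and does not limit the share that expressed them.

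The gap between glia and neurons was narrower in the pelvic than in the sympathetic ganglia for all 8 members. For Hoxb6, glia and neurons stood at 4.16 and 3.63 CPM in pelvic 1 and at 5.39 and 4.04 CPM in pelvic 2, but at 2.45 and 0.0378 CPM in the stellate, 4.60 and 0.111 CPM in the coeliac and 4.37 and 0.0691 CPM in the lumbar library. Hoxb5 was even lower in pelvic glia (3.90 and 4.11 CPM) than in pelvic neurons (6.35 and 5.36 CPM). The interaction of class and ganglion (glia minus neurons, pelvic minus sympathetic, on the log2 scale) was -5.86 ± 0.432 for Hoxb3, -5.49 ± 0.468 for Hoxb6 and -4.57 ± 0.391 for Hoxb2 (edgeR, Benjamini-Hochberg adjusted p = 0.00414 for each), -5.05 for Hoxb9, -4.89 for Hoxb7, -4.62 for Hoxb4, -4.02 for Hoxb5 and -3.15 for Hoxb8. All 8 were called lower, beside 1.04% of 15255 genes called lower and 0.275% called higher, and their median was -4.76 against -0.08. The 3 sympathetic ganglia, different ganglia with 1 library each, stood for the spread. Pelvic 1 held 752 cholinergic and 141 noradrenergic neurons when classed cell by cell. Th was at 73.9 CPM in pelvic 1 neurons, against 452 to 994 CPM in the sympathetic ones. Ganglion and transmitter of the neurons cannot be told apart in this interaction. Leaving out pelvic 1 or pelvic 2 leaves a single pelvic library, so such fits were read for sign only, and all 8 differences stayed negative. The calls need both pelvic libraries. With cells thinned to 2000 UMIs, 2 of 7 tested were called, beside 90 of 11868 genes called lower.

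Fibroblasts had a similar summed HoxB level in all ganglia below the head, at 104 to 128 CPM, and 0.541 CPM in the sphenopalatine library. Hoxb2 was the highest member in every library but pelvic 2, where Hoxb4 was higher; it was at 0.541, 40.0, 30.6, 34.1, 31.2 and 28.4 CPM in sphenopalatine, stellate, coeliac, lumbar, pelvic 1 and pelvic 2 fibroblasts. Hoxb4 was at 0, 9.81, 17.4, 18.2, 18.8 and 36.8 CPM, lowest below the head in the stellate and highest in the pelvic 2 library. The pelvic libraries of the first and the second round, at 18.8 and 36.8 CPM, lay far apart. The stellate library stood against the coeliac and lumbar libraries only across rounds, and that part of the order cannot be told apart from the round. Within the first round, Hoxb4 was at 9.81 CPM in the stellate and 18.8 CPM in the pelvic 1 library. Within the second round it was at 17.4, 18.2 and 36.8 CPM in the coeliac, lumbar and pelvic 2 libraries. The clusters named fibroblasts did not have the same leading genes in each library. In pelvic 2 they had Hoxb4 at 26.8 and 46.3 CPM. An unnamed pelvic 2 cluster of 143 cells with fibroblast markers was left out, with Hoxb4 at 22.0 and Hoxb2 at 26.4 CPM. Such clusters of 375 and 107 cells were left out in pelvic 1, with Hoxb4 at 12.1 and 15.6 CPM. Hoxb9 was low in this class, at 0, 0.245, 0.928, 9.09, 2.57 and 1.66 CPM, with the lumbar library above the rest.

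Against neurons, 6 of 8 members were higher in fibroblasts, where 30.9% of 15543 genes were higher and 39.7% lower. In edgeR's quasi-likelihood test with Benjamini-Hochberg adjustment the log2 difference was 4.44 ± 0.912 for Hoxb4 (adjusted p = 0.00385), 4.11 ± 0.824 for Hoxb8 (adjusted p = 0.00337), 4.01 for Hoxb7, 3.8 for Hoxb3, 3.65 for Hoxb6 and 2.5 for Hoxb5. Hoxb2 (3.37 ± 1.55, edgeR adjusted p = 0.0823) and Hoxb9 (0.92 ± 1.51, edgeR adjusted p = 0.609) were not called. The calls for Hoxb3, Hoxb5, Hoxb6 and Hoxb7 were not all kept without the stellate, the coeliac or the lumbar library. The count of members called higher ran from 2 to 7 when 1 library was left out, beside 4445 to 4675 genes.

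Endothelial cells, the lining of the vessels, held the highest summed HoxB levels in 4 of the 6 libraries: 1.70 CPM in the sphenopalatine, 131 in the stellate, 255 in the coeliac, 270 in the lumbar, 189 in the pelvic 1 and 263 in the pelvic 2 library. In endothelial cells Hoxb4 and Hoxb9 were the largest members in the coeliac, lumbar and pelvic 2 libraries. Hoxb4 was at 1.13, 31.6, 85.7, 58.5, 33.8 and 86.5 CPM, and Hoxb9 at 0, 7.44, 49.9, 82.6, 41.7 and 59.3 CPM, lowest below the head in the stellate library in both cases. For Hoxb4 the pelvic libraries of the first and the second round, at 33.8 and 86.5 CPM, lay far apart. The stellate library stood against the coeliac and lumbar libraries only across rounds, and that part of the order cannot be told apart from the round. Within the first round, Hoxb4 was at 31.6 CPM in the stellate and 33.8 CPM in the pelvic 1 library. Hoxb9 was at 7.44 and 41.7 CPM in the same 2 libraries. Hoxb8 was at 0, 13.5, 24.1, 21.7, 20.1 and 21 CPM. Endothelial cells held UMIs of 1.03 members per cell on average in the stellate and 1.99 in the pelvic 1 library, at medians of 9012 and 12650 UMIs, and of 4.15, 3.92 and 4.41 members in the coeliac, lumbar and pelvic 2 libraries, at medians of 27039 to 37779 UMIs; thinned to 2000 UMIs, the 5 means were 0.241, 0.305, 0.468, 0.270 and 0.542.

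In endothelial cells 6 of 8 members were higher than in neurons, where 33.4% of 15373 genes were higher and 40.8% lower. The log2 difference by edgeR with Benjamini-Hochberg adjustment was 5.71 ± 0.997 for Hoxb4 (adjusted p = 0.00121), 5.59 ± 0.563 for Hoxb8 (adjusted p = 3.94e-05), 5.13 ± 1.16 for Hoxb9 (adjusted p = 0.00643), 4.02 for Hoxb7, 3.96 for Hoxb6 and 3.6 for Hoxb5. The calls for Hoxb4, Hoxb8 and Hoxb9 held in every setting in which the gene was tested. Clustering at resolution 1.0 left these sums as they were, and Hoxb8 was not tested after thinning to 2000 UMIs. Hoxb3 (3.57 ± 1.39, edgeR adjusted p = 0.0543) and Hoxb2 (2.57 ± 1.32, edgeR adjusted p = 0.114) were not called.

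**Figure D4:**
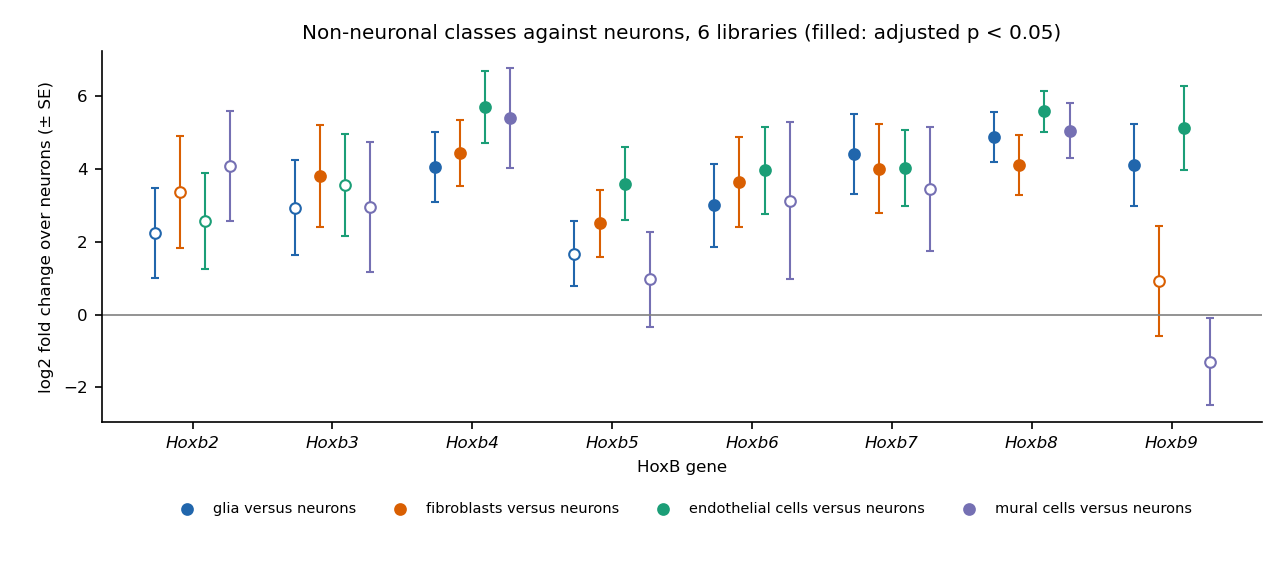
Log2 difference of each HoxB gene (horizontal axis) between 4 non-neuronal classes and neurons over 6 libraries, from edgeR with the library as block; bars are standard errors and filled points have an adjusted p under 0.05. Hoxb4 and Hoxb8 are filled in all 4 classes, Hoxb2 in none, and Hoxb9 runs from 5.13 in endothelial cells to -1.29 in mural cells.

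Mural cells, which wrap the vessels, were rich in Hoxb2 and Hoxb4 and had almost no Hoxb9. Hoxb2 was at 1.97, 73.0, 72.6, 61.6, 48.1 and 69.4 CPM in sphenopalatine, stellate, coeliac, lumbar, pelvic 1 and pelvic 2 mural cells, its highest level in any class of each library below the head. Hoxb4 was at 0, 31.6, 57.6, 78.0, 30.2 and 49.7 CPM. Hoxb9 gave 0, 0, 1, 1, 1 and 2 UMIs, at most 4.10 CPM. Against neurons Hoxb8 (log2 5.05 ± 0.751, edgeR with Benjamini-Hochberg adjusted p = 8.71e-05) and Hoxb4 (5.39 ± 1.38, adjusted p = 0.0242) were higher, 2 of 8 members beside 23.7% of 15075 genes higher and 36.2% lower. Hoxb2 (4.09 ± 1.52, edgeR adjusted p = 0.0642) was not called. Only 27 to 268 mural cells per library stood behind these sums, and the Hoxb4 call was lost without the stellate, the coeliac or the lumbar library. Hoxb9 was fitted at -1.29 ± 1.19 (edgeR adjusted p = 0.370), a value that turned positive under several settings.

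Macrophages, which come from blood lineages, carried little HoxB RNA, with a summed level of 0 CPM in the sphenopalatine library and 7.58 to 16.9 CPM below the head. Hoxb4 was at 0, 3.90, 13.2, 7.14, 3.01 and 3.79 CPM, and each of the others stayed between 0 and 3.90 CPM.

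Fibroblasts and glia of the same libraries differed by smaller amounts. The 5 members from Hoxb2 to Hoxb6 were higher in fibroblasts, with log2 differences of 1.32 ± 0.227 for Hoxb2 (edgeR, Benjamini-Hochberg adjusted p = 0.00143), 1.01 ± 0.195 for Hoxb3 (adjusted p = 0.00373), 0.93 ± 0.227 for Hoxb5 (adjusted p = 0.0110), 0.72 for Hoxb6 and 0.63 for Hoxb4. Hoxb9 was lower in fibroblasts, by a log2 difference of -2.55 ± 0.680 (edgeR adjusted p = 0.0202), while Hoxb7 (-0.26, adjusted p = 0.111) and Hoxb8 (-0.64, adjusted p = 0.0527) were not called. Of 14063 genes 25.1% were higher and 26.2% lower, and the median was 0.68 for the HoxB genes and -0.03 for all genes. The Hoxb9 call was lost without the stellate, the coeliac, the pelvic 1 or the pelvic 2 library. Without the library as block edgeR called none of the members, beside 2077 genes higher and 2144 lower of 12554. At an unadjusted edgeR p under 0.05, 1 member was then higher and 1 lower. No trend along the cluster was tested.

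The antisense transcripts of the cluster followed the members in part. Hoxb3os was at 2.41 CPM in sphenopalatine neurons (183 UMIs), where Hoxb2 was the only member, at 0.113, 0.167 and 0.193 CPM in stellate, coeliac and lumbar neurons and at 0.818 and 1.14 CPM in pelvic neurons. In glia it was at 0.955, 12, 31.3, 22.5, 10.4 and 20.3 CPM from sphenopalatine to pelvic 2, higher than in neurons by 4.72 ± 1.12 on the log2 scale (edgeR, Benjamini-Hochberg adjusted p = 0.00503). Unlike the members it overlaps, Hoxb3os was lower in cholinergic than in noradrenergic pelvic clusters (-1.51 ± 0.494, edgeR adjusted p = 0.0203) and lower in fibroblasts than in glia (-1.35, edgeR adjusted p = 0.001). Hoxb5os was higher in glia than in neurons (3.54, edgeR adjusted p = 0.0124) and in fibroblasts than in neurons (3.20, edgeR adjusted p = 0.000655), with 8.98 and 12.9 CPM in pelvic fibroblasts against 0.186 to 1.47 CPM in sympathetic ones. Both had a narrower glial excess in the pelvic ganglia (-3.04 for Hoxb3os and -4.59 for Hoxb5os, edgeR adjusted p = 0.0135 and 0.0183).

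Genes next to the cluster moved in both directions, as genes at large did. Of the 6 tested among 9 neighbours and antisense genes, 3 were higher and 3 lower in glia than in neurons. The higher ones were Cbx1 and the antisense genes Hoxb3os and Hoxb5os, which lie within the cluster. Of all genes 37.1% were higher and 36.5% lower in that comparison. Skap1, an adaptor of T cell receptor signalling, was lower in glia (log2 -2.41), fibroblasts (-6.85), endothelial cells (-3.70) and mural cells (-4.67) than in neurons, and higher in cholinergic than in noradrenergic pelvic clusters (5.78). Cbx1, a heterochromatin protein, was higher in glia than in neurons (1.54), and Atp5g1, a subunit of the mitochondrial ATP synthase, was lower (-1.30). All of these calls had edgeR adjusted p-values under 0.05.

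The other Hox clusters did not share the HoxB pattern as a whole. Of 7 HoxC genes tested, none was higher than in neurons in glia, fibroblasts, endothelial cells or mural cells, at an unadjusted p under 0.05 either, and 5, 3, 7 and 3 were called lower by edgeR; Hoxc9 was lower in glia (log2 -2.41), endothelial cells (-5.05), fibroblasts (-2.98) and mural cells (-2.38), and Hoxc8 and Hoxc4 were lower in endothelial cells by -4.37 and -4.09. HoxA genes were nearer to HoxB: 4 of 8 tested were higher in glia and 1 lower, 5 of 11 were higher in fibroblasts, 7 of 10 in endothelial cells and 4 of 10 in mural cells. Of all genes, 37.1% were higher in glia, 30.9% in fibroblasts, 33.4% in endothelial cells and 23.7% in mural cells. The shares called lower were 36.5%, 39.7%, 40.8% and 36.2%. Hoxa3, the paralogue of Hoxb3, was higher in glia (2.83), fibroblasts (4.12) and endothelial cells (5.19). HoxD genes went both ways, with 1 higher and 3 lower of 6 in glia and Hoxd3 lower in glia (-2.31) and fibroblasts (-4.97). In the pelvic clusters, 5 of 7 HoxA, 3 of 6 HoxD and 1 of 7 HoxC genes were higher in the cholinergic clusters, led by Hoxa10 (3.04), Hoxd10 (4.38) and Hoxc11 (2.37), while Hoxc4 was lower (-1.02). In that comparison 13.0% of all genes were higher and 13.7% lower. Of the 21 HoxA, HoxC and HoxD genes tested for the interaction of class and ganglion, Hoxa5 alone was called (-2.62, edgeR adjusted p = 0.0496). At an unadjusted edgeR p under 0.05, 5 of 8 HoxA genes were lower and 0 higher. Their median was -2.69 against -0.08 over all genes, the same direction as HoxB. Of 7 HoxC genes 5 were higher and 1 lower at that p (median 1.95), and of 6 HoxD genes 1 was higher and 2 lower (median -0.79). The shares of all genes at that unadjusted p were not counted, so these counts have no background to be read against.

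Partners and regulators of Hox proteins gave mixed counts. The TALE homeodomain proteins of the Pbx, Meis and Pknox families bind DNA together with Hox proteins. Of 9, 1 was higher and 3 lower in glia than in neurons, and 3 were higher and 5 lower in endothelial cells. Of all genes, 37.1% were higher and 36.5% lower in glia, and 33.4% higher and 40.8% lower in endothelial cells. Meis1 was lower in glia (-3.21), endothelial cells (-4.45) and mural cells (-2.27), whereas Meis2 was higher in fibroblasts (6.83), mural cells (6.26) and endothelial cells (5.11). Pbx3 was higher in cholinergic than in noradrenergic pelvic clusters (4.71) and had a negative interaction of class and ganglion (-2.56), as the HoxB members had.

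Among upstream regulators, 6 of 9 tested were higher and 3 lower in glia, where 37.1% of all genes were higher and 36.5% lower. Egr2, which switches on Hoxb2 in the hindbrain and myelin genes in Schwann cells, was higher by 6.34, and the retinoic acid receptor Rara by 2.65, while Aldh1a2, the main retinoic acid synthesis enzyme of the embryo, was lower by -3.98. In the pelvic clusters 3 of 8 were higher in the cholinergic ones, namely Aldh1a2 (6.15, itself a P4 marker), the retinoic acid degrading enzyme Cyp26b1 (4.04) and the receptor Rarb (2.22), and none was lower. Of all genes 13.0% were higher and 13.7% lower in the cholinergic clusters. Of 16 Polycomb and trithorax genes, which keep Hox genes silent or active, 8 were higher and none lower in glia, led by Ezh2 (3.56), Eed (1.66) and Ring1 (1.47), and 1, Cbx7 (1.83), was higher in the cholinergic pelvic clusters. These calls had edgeR adjusted p-values under 0.05 over all genes.

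Over the 36 sums of 6 classes and 6 libraries, the genes whose log2(CPM + 1) was most like that of a member, among 13412 genes, were mostly other Hox genes. For Hoxb8 they were Hotairm1, a long non-coding RNA of the HoxA cluster (Pearson's r 0.948), Hoxb7 (0.922) and Hoxb6 (0.899); for Hoxb6 they were Hoxa3 (0.925), Hoxa5 (0.914) and Hoxb7 (0.905). Hotairm1 was also the nearest to Hoxb2 (0.892) and Hoxb4 (0.914), Hoxa5 to Hoxb5 (0.887), Hoxb6 to Hoxb3 (0.884) and Hoxb8 to Hoxb7 (0.922). Hoxb9 stood apart: its nearest genes were Rasa1 (0.780), Ptpn12 (0.757) and Pias2 (0.753). Between members r ran from 0.460 for Hoxb2 and Hoxb9 to 0.922 for Hoxb7 and Hoxb8. The 6 classes of a library share its preparation and depth, so these values describe the sums and carry no test.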

How the data were processed

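Summed UMI counts were compared between cell classes of mouse autonomic ganglia. Members, gene lists and tests were chosen with earlier results of these data known. The counts are raw UMI counts per gene and droplet, deposited by the authors as filtered matrices made with Cell Ranger 6.0.1 on mm10; no per-sample column of another series was present (0). Droplets with more than 1500 and fewer than 11000 genes and under 15% mitochondrial UMIs were kept. Neurons had an sctransform-normalised mean of Stmn2, Stmn3, Gap43 and Tubb3 over 3 and low glial markers (Seurat 5.3.0, sctransform 0.4.2). Other cells, and pelvic neurons at resolution 0.3, were clustered without Hox genes (2000 variable genes, 30 components, 20 neighbours); clusters were named from at least 3 fixed markers. Doublets called by Scrublet (0.114% to 3.62% of cells, few in the pelvic libraries) were kept, and removed in an alternative. For the pelvic clusters both libraries were centred before joining.

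UMIs were summed per library and class (at least 20 cells; 10 neurons per pelvic cluster) and tested with edgeR 4.0.16 (quasi-likelihood, TMM, filterByExpr, library as block, Benjamini-Hochberg over all genes, threshold 0.05) in R 4.3.3, after the tests had been checked on simulated data. Libraries are the replicates, with pups per library not given, so p-values measure only the spread between libraries. Fold changes are relative to a prior count where a class is near 0. Precision follows from total counts of 39353313 to 113352559 UMIs; intervals and limits of 0 (3 counts) cover counting error only. All members were described; of each fixed list, up to 3 genes per direction with the smallest adjusted p could be named, and likeness took the 3 genes of highest r among those reaching 10 CPM in a sum. DESeq2 1.42.0, other filters, thinning to 2000 UMIs, left-out libraries and rounds were alternatives; leaving out mixed neuron clusters, or both pelvic libraries, was added after seeing the data. The driver of the Cre transgene is not reported here.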

Additional observations from a re-analysis of the deposited data

Results flagged for a closer look

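The difference between glia and neurons differed between the pelvic and the sympathetic ganglia in a test of the difference itself, for each of the 8 members tested. The values (glia minus neurons, pelvic minus sympathetic, log2) were -4.57 for Hoxb2, -5.86 for Hoxb3, -4.62 for Hoxb4, -4.02 for Hoxb5, -5.49 for Hoxb6, -4.89 for Hoxb7, -3.15 for Hoxb8 and -5.05 for Hoxb9 (edgeR, Benjamini-Hochberg adjusted p = 0.00414 to 0.0328). The calls need both pelvic libraries. Leaving out either leaves a single pelvic library, so such fits were read for sign only, and all 8 differences stayed negative.

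Hoxb13 appeared in cells outside the classes compared. The epithelium-like cluster of pelvic 2, 30 cells led by Krt15, Krt14, Epcam and Krt5, held Hoxb13 at 52.1 CPM and Hoxb9 at 20.8 CPM, while no class of any library passed 0.642 CPM of Hoxb13. It is a single cluster of 1 library, and no such cluster was named in pelvic 1.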

How the results depend on the processing

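Over the single-gene values, 741 of 921 alternatives kept direction and side of the threshold, 119 lost a call, 39 gained one, 13 moved and 9 changed sign. Some of those kept could not have changed, since the setting left the sums as they were. These were fibroblasts against glia without the glial exclusion of neurons, and endothelial and mural cells at resolution 1.0. The pelvic comparison with doublets removed also gave the same counts of called genes as reported.
The causes of these changes were not tested. Beside the counts of members, brackets give all genes called the same way, of those tested. Members called higher in glia than in neurons, 5 as reported, were 8 with DESeq2 (5460 of 15401). They were 1 without the library block (4646 of 13774), 1 in the first round (4118 of 15388) and 2 in the second (5002 of 14683). In fibroblasts, 6 as reported, they were 3 without the filter (4712 of 24645) and 2 without the block (4053 of 13689). They were 3 after thinning (4 members tested, 3123 of 10263 genes) and 2 to 7 with 1 library left out (4445 to 4675 genes). In the rounds they were 0 (3667 of 15315) and 3 (4229 of 14771). In endothelial cells, 6 as reported, they were 3 after thinning (4 members tested, 2641 of 8786 genes). With 1 library left out they were 5 to 8 (4845 to 4997 genes). They were 4 in the first round (4257 of 15386), in the second (4330 of 14583) and without the block (4407 of 13584). In mural cells, 2 as reported, they were 7 with DESeq2 (3951 of 15075) and 4 after thinning (5 members tested, 1892 of 8876 genes). With 1 library left out they were 1 to 3 (3030 to 3439 genes), and without both pelvic libraries 6 (2665 of 14493). They were 1 in the first round (2793 of 14997) and 1 in the second (2815 of 14087). In the first round 1 member was lower (4190 of 14997). Fibroblasts against glia, 5 higher and 1 lower as reported, gave 0 and 0 without the block (2077 and 2144 of 12554). After thinning 3 were higher (6 members tested, 2216 of 11200 genes). With 1 library left out 3 to 5 were higher (2947 to 3400 genes) and 0 to 2 lower (3216 to 3403 genes). The first round gave 0 higher (1878 of 12991), the second 3 higher and 0 lower (2685 and 2488 of 13319). There were 2 lower with doublets removed (3662 of 14037), with cells above 1000 genes (3688 of 13982) or at resolution 1.0 (3873 of 13853). The interaction, 8 lower as reported, gave 2 after thinning (7 members tested, 90 of 11868 genes). It gave 8 without the stellate library (602 of 15029), 8 without the coeliac (141 of 15852) and 7 without the lumbar (92 of 15086). Fits with a single pelvic library were read for sign only. In the pelvic comparison, thinning left no HoxB gene past the filter.
Summed levels in neurons went to 2.20 CPM (thinned), 1.10 (doublets removed) and 0.855 (mixed clusters left out) in the stellate, 8.59 (mean of cells) and 7.88 (thinned) in the sphenopalatine, 0 (thinned) and 0.449 (doublets removed) in the coeliac, 2.20, 2.69 and 1.12 (mean of cells, thinned, mixed clusters left out) in the lumbar and 50.0, 48.7 (57.7 and 39.7 in pelvic 1 and 2) and 47.7 in the pelvic ganglion, and lumbar glia to 77.7 (thinned). Members at 10% of neurons became 0 in the sphenopalatine and pelvic 1 libraries after thinning or at 2 UMIs and 0 in pelvic 2 after thinning, and 1 in the lumbar library at a floor of 2%.
Signs changed only for differences that were not called: in fibroblasts Hoxb9 ran from -0.47 (without the lumbar library) to 2.27 with 1 library left out and was -0.98 in the first round; in mural cells Hoxb3 was -0.29 in the first round, Hoxb5 ran from -0.47 (without the stellate library) to 2.52 and was -0.16 in the second round, and Hoxb9 ran from -1.92 to 0.51 (without pelvic 1) and was 2.03 with DESeq2, 0.58 in the second round and 3.71 without both pelvic libraries. No paired analysis was possible because the ganglia share only replicate number 1; the library block pairs the classes of a library. A member with no UMI in a class sum may still have been present at a level of up to about 3 UMIs.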

Other observations

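A small neuron cluster held much of the HoxB RNA of the lumbar chain. The sympathetic neurons of each library were clustered without Hox genes, and the cluster with the highest Slc18a3, the vesicular acetylcholine transporter, was read after the values were seen. In the lumbar library it held 40 of 930 neurons (4.30%), was led by Sst, Vip and Calca, and had 59 of the 121 HoxB UMIs of lumbar neurons (48.8%), at 15.8 CPM. Hoxb5 gave 24 of its 29 UMIs there (6.42 CPM, exact Poisson 95% interval 4.11 to 9.55), Hoxb2 20 of 28 (5.35 CPM, 3.27 to 8.26), Hoxb4 7 of 16 and Hoxb3 4 of 8, whereas Hoxb7 gave 2 of 14. Slc18a3 was at 329.6 CPM and Th at 16.9 CPM, and no cell of the cluster was called a doublet.

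The stellate cluster of the same kind held 26 of 2724 neurons (0.954%), led by Vip, Cartpt and Sst, with 20 of 121 HoxB UMIs (16.5%) at 17.9 CPM. Hoxb5 gave 10 of its 17 UMIs there (8.97 CPM, 4.30 to 16.5) and Hoxb7 7 of 42 (6.28 CPM, 2.53 to 12.9), and Hoxb3, Hoxb4, Hoxb6, Hoxb8 and Hoxb9 gave none. Slc18a3 was at 459 CPM and Th at 209 CPM in this stellate cluster. Not all stellate neurons with Slc18a3 shared its HoxB level. With stellate neurons clustered more coarsely, the cluster named cholinergic held 28 neurons, with Slc18a3 at 129 CPM and Th at 619 CPM. It gave 1 UMI of Hoxb2 and no UMI of any other member. A coarse cluster of 192 neurons, led by Vip, Cartpt and Sst, had Slc18a3 at 180 CPM. That cluster held Hoxb5 at 4.59 CPM (14 UMIs) and Hoxb7 at 3.28 CPM (10 UMIs). No coeliac cluster passed 9.51 CPM of Slc18a3. In each ganglion the cluster with the highest Slc18a3 is 1 cluster of 1 library, with no replicate.

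Clusters led by Chga, Chgb, Th and Dbh that stayed unnamed held summed HoxB levels of 203 CPM in 163 cells of pelvic 1 and 143 CPM in 61 cells of pelvic 2; they were singled out after their values were seen. Hoxb6 was at 42.5 and 29.1 CPM, Hoxb7 at 65.6 and 33, Hoxb8 at 47.9 and 15.7, and Hoxb9 at 2.66 and 5.50. Unnamed clusters with Chga among their leading genes in the sympathetic libraries may not be the same cells. Snhg11 led the coeliac and lumbar ones, and Sytl4, Hbb-bs and Hba-a1 the stellate one. They were lower, at 30.1 CPM in 51 coeliac cells (Hoxb8 at 14.5), 17.6 CPM in 27 lumbar cells (Hoxb8 at 5.02) and 39.2 CPM in 67 stellate cells (Hoxb8 at 2.06).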
